A study of Mus musculus with 8 samples.

Results

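The 7 genes described here, Cp, Ifitm1, Klrb1f, Stap2, Sh2d4a, Enah and 4632427E13Rik, are genes outside the usual blood lineage lists that were chosen by a large change of their RNA level in mouse bone marrow libraries carrying Flt3-ITD. They were found by symbol, 7 of 23293 mouse genes, and all 7 were among the 10854 genes whose level was high enough to be tested. The values that chose them are their levels with and without Flt3-ITD, so those differences are given as a description, without a test. Gene expression was measured as FPKM, fragment counts corrected for the length of the transcript and the size of the library, in polyA RNA of c-Kit+ bone marrow cells, a fraction rich in blood stem and progenitor cells. There were 8 libraries from individual mice, 2 in each of 4 groups, all taken 4 weeks after PIpC, which induces the Mx1-cre recombinase in blood cells and some other tissues.

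Controls carried a floxed Smc3 allele (Smc3 fl/+) and no Mx1-cre. The Smc3 del/+ group carried Mx1-cre and a single floxed Smc3 allele, and the Flt3-ITD group carried Mx1-cre and the Flt3-ITD allele. Mice of the fourth group, called combined here, had Mx1-cre, floxed Smc3 and Flt3-ITD, and their Smc3 genotype is written as fl/del in 1 label and as het in another. All groups received PIpC, only the controls lacked Mx1-cre, and the number of Flt3-ITD copies is not stated. Smc3 is a subunit of cohesin, the ring that holds chromatin loops and sister chromatids, and the series addresses the dose of cohesin in normal and malignant blood formation.

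Flt3 is a receptor tyrosine kinase of early blood progenitors. The internal tandem duplication lies near its membrane, makes it signal without its ligand, and drives STAT5, RAS-MAPK and PI3K signalling in myeloid leukaemia. The genes described here act at different places in a cell. Cp encodes ceruloplasmin, a copper-binding ferroxidase that is mostly made by the liver and oxidises exported iron. Ifitm1 encodes an interferon-inducible membrane protein of a family that hinders the entry of viruses. Klrb1f belongs to the NKR-P1 lectin-like receptors, which bind Clr proteins encoded by Clec2 genes in the same gene cluster. Stap2 and Sh2d4a encode adaptors with an SH2 domain, the fold that binds phosphorylated tyrosine, and Stap2 is known to bind STAT proteins and kinases. Enah encodes Mena, an actin regulator of the Ena/VASP family, and 4632427E13Rik is annotated as a long non-coding RNA.

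Several features of the libraries touch every comparison. Xist, the RNA of the inactive X chromosome, stood at 636.8 ± 28.0 FPKM (SD, n = 2) in controls and 548.1 ± 68.3 in the combined group, against 0.680 ± 0.361 in Smc3 del/+ and 0.233 ± 0.132 in Flt3-ITD. The first pair of groups thus showed the female pattern and the others the male one. Sex and genotype cannot be told apart in the other comparisons of single groups or in the interaction, whereas combined against control pairs like with like and effects averaged over both backgrounds are balanced for it. Smc3 RNA averaged 134.0 FPKM in Smc3 del/+ against 115.4 in controls, and 119.5 in combined mice against 92.3 in Flt3-ITD mice, so that neither deleted group lay below its counterpart. Genes at 1 FPKM or more numbered 10490 to 10843 per library. Combined replicate 2 listed 11076 genes at 0 against 8878 to 9907 in the other libraries. The replicates of the combined group also differed most, with an SD of their difference of 0.701 on the log2 scale against 0.350 to 0.409 in the other groups. The depth in reads is unknown, and a lower level in a bulk fraction can mean fewer cells of a type or less RNA per cell, which cannot be told apart.

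Since 6 of the genes had higher means in both carrier groups, promoters are shown for 3 of them, a window with matches to a STAT motif, a window with a TATA box, and a window without a match to any motif searched. The windows hold 300 bases, from 250 before to 50 after a transcription start, and come from RefSeq on GRCm38.p6, with 8 windows for 6 of the 7 genes and no entry for Sh2d4a. All motifs were searched on both strands. The GAS motif, TTCNNNGAA, is bound by STAT factors and the ISRE core, GAAANNGAA, by interferon regulatory factors. The blood factor motifs were AGATAA for the GATA family, TGTGGT for the RUNX family and CCGGAAG for the ETS family. The general promoter elements were the CCAAT box, named by its letters, and the TATA box, TATAAA. Capitals mark the matches, and each line runs 5′ to 3′ on the strand of its gene.
Klrb1f, chr6:129045651-129045950, plus strand: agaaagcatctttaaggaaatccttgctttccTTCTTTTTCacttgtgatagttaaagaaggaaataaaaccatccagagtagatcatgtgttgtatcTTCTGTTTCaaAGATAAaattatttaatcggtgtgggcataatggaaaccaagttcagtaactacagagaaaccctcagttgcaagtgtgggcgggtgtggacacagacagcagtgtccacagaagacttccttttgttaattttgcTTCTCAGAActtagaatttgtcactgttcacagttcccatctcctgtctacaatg
Cp, chr3:19956999-19957298, plus strand: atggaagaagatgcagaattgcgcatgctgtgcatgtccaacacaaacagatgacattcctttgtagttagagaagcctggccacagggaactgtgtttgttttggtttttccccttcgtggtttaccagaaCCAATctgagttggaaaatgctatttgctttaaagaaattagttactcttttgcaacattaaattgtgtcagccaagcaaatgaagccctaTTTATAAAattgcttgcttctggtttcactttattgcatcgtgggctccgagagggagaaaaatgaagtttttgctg
Ifitm1, chr7:140967826-140968125, plus strand: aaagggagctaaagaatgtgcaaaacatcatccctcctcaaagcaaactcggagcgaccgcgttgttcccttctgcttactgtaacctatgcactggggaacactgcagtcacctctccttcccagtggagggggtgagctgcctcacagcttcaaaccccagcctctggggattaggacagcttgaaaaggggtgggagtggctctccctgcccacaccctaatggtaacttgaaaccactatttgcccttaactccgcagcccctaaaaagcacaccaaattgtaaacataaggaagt

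The Klrb1f window held a GAS match, TTCTCAGAA, that begins 5 bases before the start and reads the same motif on both strands. It also held ISRE cores on the minus strand 218 and 152 bases before the start and a GATA match 141 bases before it. In the Cp window a CCAAT box began 118 bases before the start, and a TATA box lay 25 bases before it, overlapping a second match on the other strand. The other Cp window, 1 of the Stap2 windows, and the Enah and Ifitm1 windows held none. A RUNX match stood 7 bases before the other Stap2 start, and a CCAAT box 117 bases before the start of 4632427E13Rik. Of all 32851 windows in the table, 8.30% held a GAS match, 8.56% an ISRE core, 11.2% GATA, 16.8% RUNX, 37.4% CCAAT, 8.86% the ETS core and 13.6% the TATA box. No motif was thus shared by more than the 2 genes with a CCAAT box, and these letters alone say nothing of binding.

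Ceruloplasmin RNA, at about 1 FPKM without Flt3-ITD, reached levels about 12-fold higher with it. Control libraries had 0.859 and 0.997 FPKM of Cp and the Smc3 del/+ libraries 1.48 and 1.03, whereas Flt3-ITD libraries had 7.11 and 14.9 and combined ones 21.0 and 9.22. All 4 carriers lay above all 4 other libraries, and the highest and lowest carriers differed more than the means of the carrier groups did. The mean was 0.928 ± 0.0974 FPKM (SD, n = 2) in control and 11.0 ± 5.51 in Flt3-ITD, a ratio of 11.9, and the ratio of the combined group to Smc3 del/+ was 12.1. On the log2(FPKM + 1) scale used for all fits these differences were 2.56 ± 0.424 (SE) and 2.74 ± 0.424. Of the genes described here, Cp had the most even ratio in both Smc3 backgrounds. Cp overlaps Hps3, a gene of lysosome-related organelle assembly, in the annotation, and no source used here says whether counting used strand. Hps3 read 11.9 to 14.1 FPKM without Flt3-ITD and 17.9 to 23.9 with it, also without overlap but by a smaller ratio.

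Ifitm1 was, with Klrb1f, the most abundant of the 7 genes in carriers on the FPKM scale. Flt3-ITD libraries had 72.0 and 101.1 FPKM and combined libraries 61.0 and 51.0, against 13.0 and 14.7 in the control pair and 8.69 and 4.36 in the Smc3 del/+ pair. The groups formed 4 steps that did not overlap, with Smc3 del/+ lowest, then control, the combined group and Flt3-ITD. The group means gave ratios of 6.24 for Flt3-ITD to control and 8.59 for combined to Smc3 del/+, or 2.54 ± 0.290 and 2.98 ± 0.290 on the log2(FPKM + 1) scale. Ifitm1 has near paralogs beside it on chromosome 7, so the split of reads between them is uncertain.

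Klrb1f, the NKR-P1 receptor, was already present without Flt3-ITD. Its level was 14.3 and 11.0 FPKM in the control pair, 19.3 and 20.3 in the Smc3 del/+ pair, 48.9 and 77.2 in the Flt3-ITD pair and 84.5 and 41.9 in the combined pair. Carriers and other libraries did not overlap, whereas Flt3-ITD lay within the range of the combined group, with means of 63.0 ± 20.0 and 63.2 ± 30.2. The ratios of means were 4.98 over control and 3.19 over Smc3 del/+ (2.2 ± 0.340 and 1.54 ± 0.340 on the log2 scale). Klrb1f also has close relatives in its cluster that could share reads.

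Stap2, the adaptor that binds STAT proteins, was low without Flt3-ITD. The control pair had 2.24 and 2.56 FPKM, the Smc3 del/+ pair 2.06 and 3.0, the Flt3-ITD pair 20.0 and 14.1 and the combined pair 9.36 and 9.91. Controls and Smc3 del/+ overlapped, and both combined libraries lay between them and Flt3-ITD. The ratio of means was 7.12 over control and 3.81 over Smc3 del/+, or 2.39 ± 0.229 and 1.60 ± 0.229 on the log2 scale.

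Sh2d4a, the other SH2 adaptor, ran the opposite way. The control pair had 13.4 and 14.3 FPKM and the Smc3 del/+ pair 12.1 and 11.2, while both Flt3-ITD libraries were listed at 0 and the combined pair at 0.698 and 0. Sh2d4a was therefore listed at 0 in 3 of 4 carriers, while its 4 other libraries lay between 11.2 and 14.3. No fold is given against values of 0, and the fitted difference between Flt3-ITD and control, -3.89 with a pseudocount of 1 and -7.12 with 0.1, depends on that choice. A value of 0 in such a table can be a failed estimate as well as an absence. Sh2d4b, its nearest relative, was at most 0.249 FPKM in every library.

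Enah, which encodes Mena, was close to the lower end of detection in controls. Levels were 0.356 and 0.293 FPKM in the control pair, 1.12 and 1.26 in the Smc3 del/+ pair, 5.10 and 5.90 in the Flt3-ITD pair and 2.47 and 1.78 in the combined pair. The groups did not overlap, and Smc3 del/+ and combined libraries lay between control and Flt3-ITD. The ratio of means was 16.9 over control but 1.78 over Smc3 del/+, or 2.29 ± 0.236 and 0.50 ± 0.236 on the log2(FPKM + 1) scale. With a pseudocount of 0.1 these differences were 3.72 and 0.77, since adding 1 understates the differences of low genes.

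The non-coding RNA 4632427E13Rik was the least regular. The Flt3-ITD pair had 10.4 and 3.26 FPKM and the combined pair 2.16 and 5.54, against 0.308 and 1.17 in the control pair and 2.31 and 1.43 in the Smc3 del/+ pair. Combined replicate 1, at 2.16, lay below Smc3 del/+ replicate 1, so carriers and other libraries overlapped for this gene only. The ratio of means was 9.22 over control and 2.06 over Smc3 del/+, or 2.05 ± 0.540 and 0.68 ± 0.540 on the log2 scale. Without Flt3-ITD replicate 1 the difference from control was 1.34, and with a pseudocount of 0.1 it was 3.04. The difference of combined from Smc3 del/+ was 0.16 without combined replicate 2 and 1.21 without combined replicate 1.

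**Figure D1:**
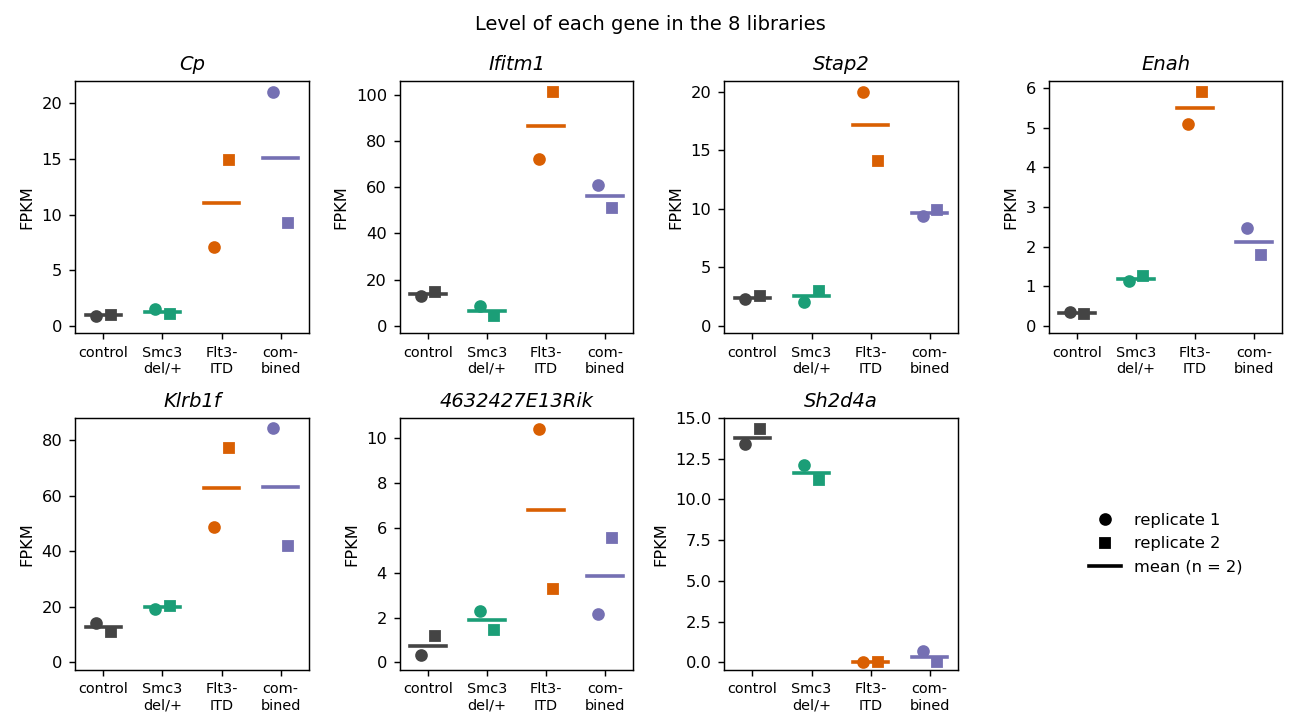
Level of each of the 7 genes in the 8 libraries, as FPKM, with 1 point per library in the 4 groups and a line at each group's mean. Carriers of Flt3-ITD lie above the other libraries for 5 of the 6 higher genes, overlap for 4632427E13Rik, and are at or near 0 for Sh2d4a.

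Side by side, 6 of the 7 genes had no overlap between the 4 carriers and the 4 other libraries, all except 4632427E13Rik, against 27.2% of all tested genes, a comparison the choice of the genes decided. Between Flt3-ITD and control all 7 had no overlap (69.5% of tested genes), and between combined and Smc3 del/+ it was 6 (48.0%). A difference of at least 1 on the log2 scale in both Smc3 backgrounds and in the same direction was found for 5, all except Enah and 4632427E13Rik, against 3.54% of tested genes. Among the 10854 genes ranked by the difference between Flt3-ITD and control, the 6 higher genes held ranks from 8 (Cp) to 20 (4632427E13Rik) from the top, and Sh2d4a rank 31 from the bottom. In combined against Smc3 del/+ the same genes spread from rank 16 (Ifitm1) and 25 (Cp) through 117 (Stap2), 132 (Klrb1f) and 725 (4632427E13Rik) to 1204 (Enah), and Sh2d4a held rank 11 from the bottom. The word switched describes Sh2d4a by its zeros in the values used here, while the other 6 genes were above 0 in every library and differed in level. In combined against control, where Xist had the same pattern but Smc3 and Mx1-cre also differed, the differences were 2.96 for Cp, 1.94 for Ifitm1, 1.65 for Stap2, 1.23 for Enah, 2.16 for Klrb1f, 1.43 for 4632427E13Rik and -3.51 for Sh2d4a. All 7 kept their direction there, between groups of the same Xist pattern. This comparison too sets carriers against others, so the choice of the genes favours that outcome, and it is given as a description. The differences averaged over both backgrounds were 2.76 ± 0.208 for Ifitm1, 2.65 ± 0.286 for Cp, 2.0 ± 0.206 for Stap2, 1.87 ± 0.253 for Klrb1f, 1.40 ± 0.347 for Enah, 1.36 ± 0.430 for 4632427E13Rik and -3.58 ± 0.216 for Sh2d4a.

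**Figure D2:**
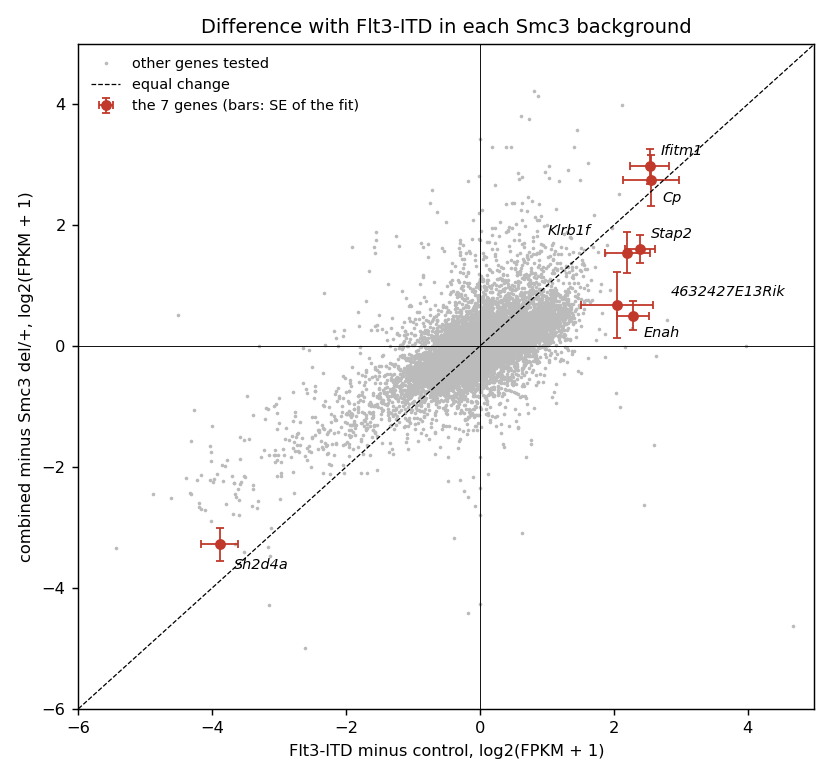
Difference in log2(FPKM + 1) between Flt3-ITD and control on the x axis and between combined and Smc3 del/+ on the y axis, for all tested genes (grey) and the 7 described genes (red, with 1 SE either way). Cp and Ifitm1 lie near the line of equal differences, while Enah and 4632427E13Rik lie below it, at 0.50 and 0.68 on the y axis.

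The authors' other table, rescaled by them, moved the median of all genes to -0.58 in Flt3-ITD against control and to -0.31 in combined against Smc3 del/+, where it was within 0.02 of 0 in the table used here. Relative to those medians, Cp differed by 2.57 and 2.73, Ifitm1 by 2.58 and 2.93, Stap2 by 2.38 and 1.60, Klrb1f by 2.25 and 1.51, Enah by 2.33 and 0.70 and 4632427E13Rik by 2.04 and 0.77. Sh2d4a differed by -3.71 and -2.92. Its rescaled carrier values were above 0, at 0.0813 and 0.0674 in the Flt3-ITD pair and 0.691 and 0.102 in the combined pair. The order of the 6 higher genes in combined against Smc3 del/+ was the same in both tables.

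The deletion of Smc3 was not used to choose the genes and could be tested, most cleanly as an effect averaged over libraries with and without Flt3-ITD. By design this estimate does not vary with the Flt3-ITD differences within either Smc3 background or with their average. It is not independent of combined against control. The undeleted side of the averaged effect holds the controls, which lack Mx1-cre. Of the 7 only Ifitm1 had an interval that excluded 0. In both backgrounds its 2 deleted libraries lay below the 2 undeleted ones, and its averaged difference was -0.82 with a 95% interval of -1.30 to -0.35. It did not pass after adjustment over all genes (limma adjusted p = 0.901, and 0.268 to 0.997 over the alternatives tried). The other 6 averaged differences were 0.31 (95% interval -0.34 to 0.96) for Cp, -0.35 (-0.82 to 0.12) for Stap2, -0.17 (-0.96 to 0.62) for Enah, 0.29 (-0.29 to 0.86) for Klrb1f, 0.07 (-0.91 to 1.05) for 4632427E13Rik and 0.08 (-0.42 to 0.57) for Sh2d4a, all with adjusted p of 0.901 or more. With limma 0 of 7 passed, as did 0 of all 10854 tested genes (0%), of which 525, or 4.84%, had an unadjusted p under 0.05.

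Within the background without Flt3-ITD, Smc3 del/+ against control, 6 of the 7 genes had no overlap, all except Stap2, against 47.3% of tested genes. This comparison shares the control libraries with the choice of the genes, which favours higher values in the other group for genes chosen as high. For Sh2d4a, chosen as low, it favours lower ones. The comparison also sets apart sexes and presence of Mx1-cre. Enah was higher in both deleted libraries, by 0.73 on the log2 scale (95% interval 0.18 to 1.28, limma adjusted p = 0.886, or 1.61 with a pseudocount of 0.1 and adjusted p = 0.806), and Ifitm1 was lower in both, with a difference of -1.04 (-1.72 to -0.37, limma adjusted p = 0.764). The other differences were 0.75 (-0.51 to 2.01) for 4632427E13Rik, which was 1.41 with that pseudocount, 0.62 (-0.17 to 1.41) for Klrb1f, 0.22 (-0.77 to 1.21) for Cp, 0.04 (-0.49 to 0.58) for Stap2 and -0.23 (-0.87 to 0.41) for Sh2d4a. By limma 0 of 7 passed, and 1 of all tested genes did (0.00921%), with 494 at an unadjusted p under 0.05.

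Among carriers, combined against Flt3-ITD, the 3 genes without overlap were Ifitm1, Stap2 and Enah, all lower with the deletion, against 33.9% of tested genes. The comparison shares the Flt3-ITD libraries with the choice, which favours lower values in the other group for genes chosen as high. The difference of Enah was -1.06 (95% interval -1.61 to -0.51, limma adjusted p = 0.183) and that of Stap2 -0.75 (-1.28 to -0.21, limma adjusted p = 0.318). That of Ifitm1 was -0.60 (-1.28 to 0.07, adjusted p = 0.475). The other genes differed by 0.40 (-0.59 to 1.39) for Cp, -0.04 (-0.84 to 0.75) for Klrb1f, -0.61 (-1.87 to 0.64) for 4632427E13Rik and 0.38 (-0.26 to 1.02) for Sh2d4a. By limma 0 of 7 passed, against 31 of all tested genes (0.286%), and 1196 had an unadjusted p under 0.05.

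The interaction, the difference of the Flt3-ITD effect between both Smc3 backgrounds, contains the Flt3-ITD differences that chose the genes, and a choice of genes high in Flt3-ITD favours negative values of it. It is therefore given as a description. For Enah it was -1.79 ± 0.334 (SE). Enah was higher with the deletion in the absence of Flt3-ITD and lower with it among carriers, in both libraries each time, as values that did not pass. It was -0.79 ± 0.324 for Stap2, -1.36 ± 0.763 for 4632427E13Rik, -0.66 for Klrb1f, 0.18 for Cp, 0.44 for Ifitm1 and 0.61 for Sh2d4a. Of all tested genes, 4 passed by limma (0.0369%), with 1009 at an unadjusted p under 0.05, and no call is read for the 7. Without combined replicate 1, the Enah values were -1.22 in combined against Flt3-ITD and -1.95 in the interaction. Those fits hold 1 combined library, so little can be read from them. The interaction follows the Xist pattern, so sex cannot be told apart from it.

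**Figure D3:**
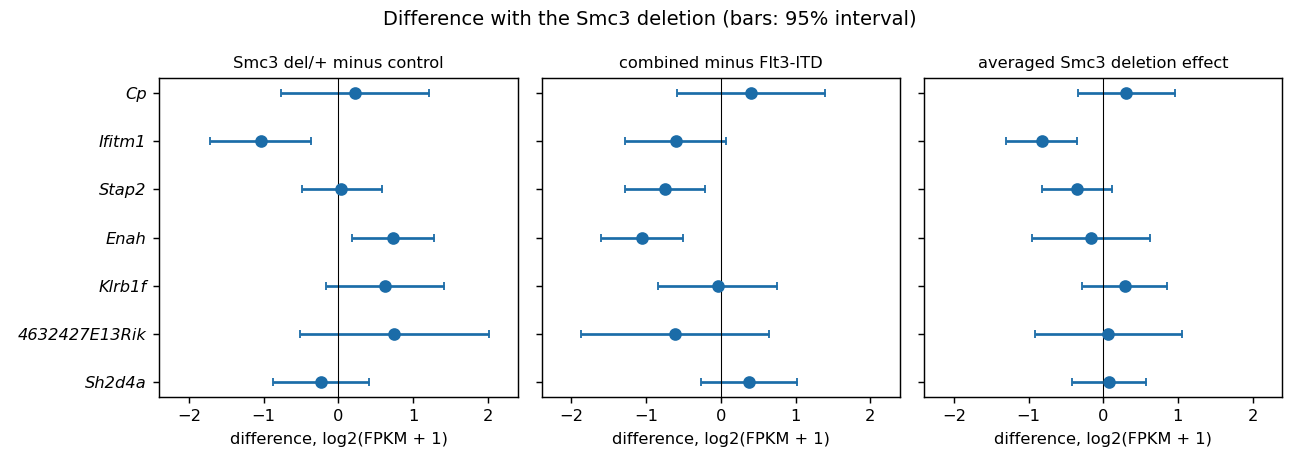
Effect of the Smc3 deletion on each of the 7 genes, in log2(FPKM + 1), averaged over both backgrounds, without Flt3-ITD and with Flt3-ITD, with 95% intervals. Intervals that exclude 0 are seen for Ifitm1 (averaged, and without Flt3-ITD), Enah (without and with Flt3-ITD, in opposite directions) and Stap2 (with Flt3-ITD), and none passed the adjusted threshold.

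Relatives and partners of the 7 genes were described from 5 lists of 79 genes, of which 51 were tested. In Flt3-ITD against control 7 of them rose and 6 fell (8.51% and 9.50% of all tested genes did so), and in combined against Smc3 del/+ 1 rose and 2 fell (2.55% and 2.89%). The ratio of rises to falls depended on the scaling. In the table the authors had normalized, 1 rose and 12 fell in the first comparison and 0 rose and 5 fell in the second, where 107 and 4676, and 160 and 1144, of all tested genes did. None of the 51 passed for the averaged Smc3 effect or the interaction.

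Of 13 tested genes of iron oxidation and copper handling, 1 rose and 4 fell in Flt3-ITD against control, with a median difference of -0.12 against -0.007 over all genes, and in combined against Smc3 del/+ 0 rose and 2 fell, with a median of -0.26. Atp7b, the copper pump that loads ceruloplasmin, had 11.9 and 11.5 FPKM in the control pair, 8.0 and 7.59 in the Smc3 del/+ pair, 0.972 and 0.162 in the Flt3-ITD pair and 1.02 and 2.14 in the combined pair. It fell by 3.07 ± 0.315 in Flt3-ITD against control (adjusted p = 0.00185) and fell by 1.80 ± 0.315 in the other background (adjusted p = 0.0230). Its carriers lay below all other libraries, the reverse of Cp. Steap3, a ferrireductase of red cell precursors, read 26.9 to 32.9 FPKM without Flt3-ITD and 4.70 to 8.26 with it, and fell by 2.41 ± 0.154 (adjusted p = 0.000437) and, in the other background, fell by 1.70 ± 0.154 (adjusted p = 0.00399). In Flt3-ITD against control Mt2, a metallothionein, fell by 3.48 (adjusted p = 0.0226) and Sod1, the copper-zinc superoxide dismutase, fell by 1.07 (adjusted p = 0.0192). Slc31a2, a copper transporter, rose by 0.97 (adjusted p = 0.0281) but did not pass in the normalized table (0.44, adjusted p = 0.249). Cox17, Mt1 and Commd1, the other abundant list genes, did not pass, with differences of -0.09, -1.13 and 0.14. Ferroportin, the iron exporter with which ceruloplasmin works (Slc40a1, singled out after its values were seen), stayed at 28.6 to 39.0 FPKM in all libraries, and Heph, a ferroxidase of the same family, was at most 0.355.

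Ifitm2, Ifitm3 and Ifitm6, which lie next to Ifitm1, were more abundant than it in every library. Of 4 tested Ifitm genes, 1 rose in Flt3-ITD against control and a different 1 in combined against Smc3 del/+, with medians of 0.50 and 0.55. Ifitm6 had 1326.9 and 886.0 FPKM in the Flt3-ITD pair and 879.0 and 564.7 in the combined pair, above 443.7 and 456.2 in the control pair and 419.5 and 400.5 in the Smc3 del/+ pair. All carriers lay above all other libraries, and it passed in Flt3-ITD against control (1.27 ± 0.258, adjusted p = 0.0174), though not in the normalized table (0.79, adjusted p = 0.0625), while the other difference was 0.78 (adjusted p = 0.132). Ifitm3 read 91.5 to 139.0 FPKM without Flt3-ITD and 150.2 to 298.5 with it, and passed in combined against Smc3 del/+ (1.35 ± 0.290, adjusted p = 0.0415) but not in Flt3-ITD against control (0.63, adjusted p = 0.174) or in the normalized table (1.01, adjusted p = 0.0653). Ifitm2 differed by 0.38 and 0.32 and Ifitm7, at about 1 FPKM, by -0.26 and -0.04, neither passing. Each of these differences is smaller than those of Ifitm1, 2.54 and 2.98, which were used to choose it.

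Among 20 tested SH2 adaptor genes, 3 rose and 2 fell in Flt3-ITD against control and none passed in combined against Smc3 del/+, with medians of 0.39 and 0.29. Lcp2, which encodes the SLP-76 adaptor, rose by 1.03 ± 0.117 (adjusted p = 0.00254). Sla, which encodes the Src-like adaptor, rose by 0.95 ± 0.127 (adjusted p = 0.00443), and Stap1, the other gene of the Stap family, by 0.70 ± 0.153 (adjusted p = 0.0219). Stap1 read 29.6 to 40.6 FPKM without Flt3-ITD and 41.5 to 51.3 with it, a level above that of Stap2 in every library and a smaller difference. Sla and Stap1 did not pass in the normalized table (adjusted p = 0.102 and 0.506). Blnk, an adaptor of B cell receptor signalling, fell by 3.39 ± 0.376 (adjusted p = 0.00241), and Grb10, a brake on growth factor receptors, fell by 2.08 ± 0.331 (adjusted p = 0.00755). Blnk had 16.2 and 7.14 FPKM in the control pair, 3.49 and 3.78 in the Smc3 del/+ pair, 0 and 0.269 in the Flt3-ITD pair and 1.5 and 0.775 in the combined pair, and its difference in combined against Smc3 del/+ was -1.14 (adjusted p = 0.132). Grb2 and Shc1, adaptors of most receptor kinases, differed by 0.41 and -0.07 without passing. Ptk6, a kinase known to phosphorylate Stap2, was listed at 0 in all libraries.

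Of 12 tested genes of the Ena/VASP family and its partners at actin filament tips, 2 rose in Flt3-ITD against control, 0 fell, and none passed in the other background, with medians of 0.28 and 0.34. Vasp, the family member closest to Enah in role, had 43.8 ± 8.75 FPKM (SD, n = 2) in the control pair, 46.2 and 44.6 in the Smc3 del/+ pair, 106.9 and 87.2 in the Flt3-ITD pair and 84.9 and 44.1 in the combined pair. It rose by 1.14 ± 0.292 (adjusted p = 0.0355) and differed by 0.42 in the other background, as combined replicate 2 lay within the range of the libraries without Flt3-ITD. Tes, a zyxin partner, rose by 0.61 ± 0.167 (adjusted p = 0.0423). Neither passed in the normalized table (adjusted p = 0.182 and 0.829). Evl, the third member of the family, differed by 0.00 and 0.78, and Pfn1, Zyx and Apbb1ip by 0.53, 0.90 and 0.25 in Flt3-ITD against control, none passing. Enah had the lowest level of the 3 Ena/VASP genes in every library.

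Of 10 listed NKR-P1 and Clr genes in the table only 2, Clec2d and Clec2i, reached the level needed for a test, and neither passed. Clec2d, whose protein is a ligand of NKR-P1 receptors, read 47.9 to 70.9 FPKM without Flt3-ITD and 71.0 to 103.2 with it, with differences of 0.40 and 0.56. Clec2i differed by 0.47 and -0.74. Klrb1b, Klrb1c and Klrb1a were at most 1.22 FPKM in any library.

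**Figure D4:**
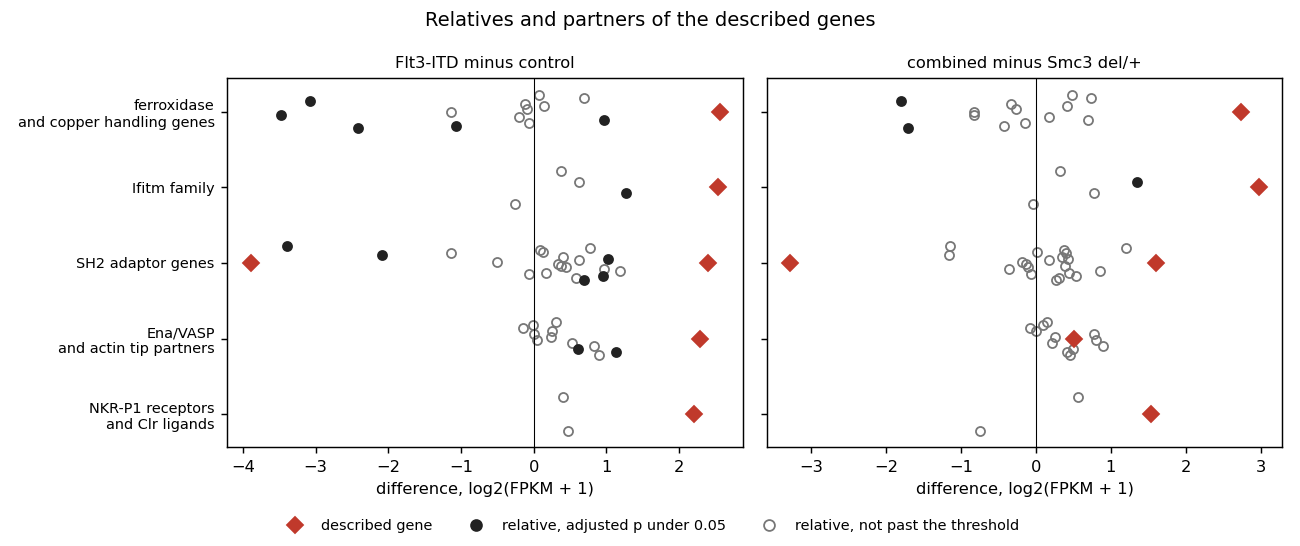
Differences in log2(FPKM + 1) for tested relatives and partners of the described genes, by list, in Flt3-ITD against control (left) and combined against Smc3 del/+ (right), with filled points for genes past the adjusted threshold and red diamonds for the described genes. Only Sh2d4a among the described genes lies on the lower side, and Atp7b and Steap3 are the filled points on the lower side in both panels.

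NKR-P1 receptors are best known from NK cells, and the fraction was checked for markers of other cells. Of the 12 NK cell markers 5 were tested. In Flt3-ITD against control 0 rose and 2 fell, since Ncr1 fell by 1.99 (adjusted p = 0.0108) and Klrd1 fell by 1.56 (adjusted p = 0.0157). In combined against Smc3 del/+ 2 rose, Klrd1 by 1.88 (adjusted p = 0.0207) and Klrk1 by 1.33 (adjusted p = 0.0334). Ncr1, which encodes the NKp46 receptor, was listed at 0 in both Flt3-ITD libraries, where Klrb1f read 48.9 and 77.2 FPKM. The summed NK list was 128.7 to 178.0 FPKM without and 130.8 to 183.6 with Flt3-ITD, most of it from Nkg7, which myeloid cells also express. The 9 T cell markers summed to at most 6.11 FPKM in any library, with 1 tested and 0 passing, and the 10 endothelial and stromal markers to at most 20.6, with 3 tested and 0 passing.

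Marker RNA of other lineages moved with Flt3-ITD in the same libraries as the 7 genes. Of 13 tested erythroid markers 12 fell in Flt3-ITD against control and 10 in combined against Smc3 del/+. Their sum was 1593.0 to 1826.3 FPKM without Flt3-ITD and 73.9 to 574.6 with it, and Epor was listed at 0 in 1 library. The globin genes Hbb-b1 and Hba-a1 were at a floor of 0.01 FPKM in most libraries, controls included, and so tell nothing of the lineage here. Of 11 neutrophil markers 5 rose in the first comparison and 0 in the second, and their sum was 79910 to 109091 FPKM without and 143451 to 230402 with Flt3-ITD. Of 8 tested macrophage markers 1 rose and 5 fell, then 0 rose and 2 fell, with sums of 75.4 to 99.3 and 46.0 to 66.0 FPKM. Of 7 tested stem cell markers 0 rose and 2 fell, then 1 rose and 0 fell, with sums of 83.5 to 101.6 and 84.8 to 119.7 FPKM, and of 5 progenitor markers 1 rose and then 2, with Kit itself at group means of 38.7 to 57.5 FPKM. Not all of these rises passed in the normalized table. In the first comparison Camp, Cd177, Emr1 and Cd93 did not (limma adjusted p = 0.0504, 0.0528, 0.344 and 0.338), while Ltf, Lcn2 and Itgam did. Cd34 and Cd93 did not in the second (limma adjusted p = 0.146 and 0.105). Cd34 stands in both the stem cell and the progenitor list, so its rise in the second comparison is counted in both. It was also the most abundant stem cell marker, at a mean of 64.4 FPKM. Whether the marker differences reflect cell makeup, and any part of it in the levels of the 7 genes, was not tested.

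The tested genes whose levels were most alike across the 8 libraries were listed for each of the 7 by Pearson's r of log2(FPKM + 1), as a description, since the libraries fall into carriers and others and any gene that follows them scores high. For Cp these were Parp6 (r = 0.992), Irf8 (0.991) and Tifab (0.989). Irf8, a transcription factor of monocyte and dendritic cell formation, read 26.4 to 29.5 FPKM without Flt3-ITD, 58.7 and 89.2 in the Flt3-ITD pair and 126.0 and 76.5 in the combined pair, with the same order of the 4 carriers as Cp. For Ifitm1 they were Chkb (0.981), 9030617O03Rik (0.978) and Mcf2l (0.975), and for Klrb1f Stk39 (0.992), Glipr1 (0.990) and Eml4 (0.987). Stap2 was most like Hpcal1 (0.990), Smim14 (0.984) and Zmynd11 (0.981), and Enah most like Rasgrp2 (0.991), Mtus1 (0.987) and Rab27a (0.982). Rab27a, which serves granule release, shared with Enah the intermediate levels of Smc3 del/+ and combined libraries, at 82.3 and 83.8 and at 116.4 and 105.9 FPKM, between 66.2 and 68.3 in the control pair and 148.6 and 141.2 in the Flt3-ITD pair. For 4632427E13Rik they were Gak (0.986), B230208H11Rik (0.980) and Tor1a (0.974). For Sh2d4a they were Crip2 (0.998), Celf1 (0.996) and Pdia2 (0.996). Crip2, a LIM domain protein, read 5.96 to 7.92 FPKM without Flt3-ITD and 0 to 0.653 with it, and Pdia2, a protein disulfide isomerase, was listed at 0 in the same 3 carriers as Sh2d4a. No 2 of the 7 genes shared a gene among these lists.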

How the data were processed

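The authors deposited gene expression as FPKM in a raw table and in a table they had normalized, each for the same 8 libraries, and the raw FPKM were used here. Per the labels' protocols, c-Kit+ cells were selected on magnetic beads and the library kit was a directional one. Per the submitters' processing notes, mm9, Cufflinks 2.0.0 and TopHat were named, without a role for each. The annotation, the use of strand and the normalization were not given in the sources used here. Fits used limma 3.58.1 (R 4.3.3, trended variance) on log2(FPKM + 1) of the 10854 mouse genes whose mean reached 1 FPKM, leaving out 92 spike-ins. Benjamini-Hochberg adjusted p-values under 0.05 counted as passed. A model of 4 group means (4 residual degrees of freedom) gave the comparisons of groups and the interaction, and an additive model (5) the averaged effects. Permuting 2 libraries against 2 exactly cannot give a p below 0.333, so calls rest on the spread shared between genes and groups. The libraries come from individual mice. The p-values use a spread pooled over the 4 groups, not that of the groups compared, and the replicates of the combined group differed most.

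The members and lists were chosen with earlier results of these data known. No p is given for the 7 genes in Flt3-ITD comparisons or in the interaction. Named list genes are up to 4 with the highest mean FPKM in each family list and others that passed where there were at most 6, except Slc40a1, Heph, Ptk6, Sh2d4b, Evl and Klrb1a, which were chosen as relatives or partners after their values were seen, and for each of the 7 genes the 3 most alike. Shared replicate numbers did not pair libraries (r of their deviations -0.113 to 0.0229), and 0 genes had equal values in the 2 replicates of a group. The additive fit was tested on simulated data. An uncertain estimate from the steps of values under 0.3 FPKM put relative depth at 0.707 to 1.01 of control replicate 1. Alternatives were the normalized table, pseudocount 0.1, no filter, a mean of at least 5 FPKM, no trend, a replicate block, only the groups compared, and leaving out each library. Promoters come from RefSeq (GRCm38.p6), another build than the files, so only symbols were matched.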

Additional observations from a re-analysis of the deposited data

How the results depend on the processing

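The count of the 7 genes past the threshold stayed at 0 in every Smc3 comparison under each alternative that kept 2 libraries in every group fitted. With 1 library left out, its group holds 1 library. Of the 7 genes Enah alone then changed its call, in combined against Flt3-ITD without combined replicate 1. Calls over all tested genes also rose in that fit, so nothing particular to Enah can be read from it. The family genes past the threshold, 13 in Flt3-ITD against control, ranged from 4 (without control replicate 1) to 22 (without either combined library) when 1 library was left out, and were 5 without control replicate 2, 7 without either Flt3-ITD library and 21 with only those groups fitted. In combined against Smc3 del/+ the 3 became 5 in the normalized table, 1 without a filter, 0 with only those groups, and 0 to 21 when 1 library was left out (21 without combined replicate 2, 9 without combined replicate 1, 0 without Smc3 del/+ replicate 1, 1 without either control library or Smc3 del/+ replicate 2). The counts over all tested genes moved the same way, from 1955 to 243 without control replicate 1 and to 4232 and 4235 without a combined library in the first comparison, and from 591 to 7 without Smc3 del/+ replicate 1 and to 2724 without combined replicate 2 in the second. With only the groups compared, which keep 2 libraries each, the counts over all tested genes were 3603 and 2. Atp7b, Steap3 and Ifitm3 did not pass in the second comparison then. Such fits hold fewer libraries or genes, and the cause of these moves in either direction was not tested. Atp7b, Steap3, Lcp2 and Blnk passed in Flt3-ITD against control under every alternative that tested them. The other 9 family calls there did not, and Tes passed in 5 of 15.

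Differences of the 7 genes that changed sign never passed. For the averaged Smc3 effect, Enah (-0.17) was 0.13 with pseudocount 0.1 and -0.37 to 0.07 with 1 library left out, 4632427E13Rik (0.07) was -0.08 in the normalized table and -0.21 to 0.49, and Sh2d4a (0.08) was -0.18 in that table and -0.14 to 0.17. In Smc3 del/+ against control the normalized table gave -0.10 for Cp and -0.33 for Stap2, whose range with 1 library left out was -0.15 to 0.24. That table moved the median of all genes by -0.38 there and by -0.24 for the averaged effect. In combined against Flt3-ITD, leaving out 1 library gave -0.15 to 0.95 for Cp, -0.54 to 0.45 for Klrb1f, -1.32 to 0.09 for 4632427E13Rik and 0.00 to 0.76 for Sh2d4a, and for the Cp interaction -0.37 to 0.74.

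With the replicate block, 0 of the 7 genes passed in any Smc3 comparison. Each group holds both replicate numbers, so the block cannot change a difference between groups. The count of 5 of 7 that differed by at least 1 in both backgrounds was therefore fixed. The family counts were 13 and 2. The numbers were not shown to pair the libraries. Precision is limited by 2 mice a group, by the unknown depth and by values listed at 0.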

Other observations

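The protein-coding genes next to the 7 genes in the RefSeq annotation, 2 on each side, were read as a further description. Of 28 neighbours 16 were tested. In Flt3-ITD against control 2 rose, Ifitm6 beside Ifitm1 and Mpnd beside Stap2 (1.04, limma adjusted p = 0.0360), and 1 fell, Prcp beside 4632427E13Rik (-0.88, limma adjusted p = 0.00875). In combined against Smc3 del/+ Ifitm3 alone rose and 0 fell. Mpnd read 3.89 to 5.14 FPKM without Flt3-ITD, 11.2 and 9.25 in the Flt3-ITD pair, and 9.73 and 5.45 in the combined pair. Prcp, a serine carboxypeptidase, had 29.7 and 31.8 FPKM in the control pair, 24.2 and 27.7 in the Smc3 del/+ pair, 14.8 and 17.8 in the Flt3-ITD pair and 25.7 and 25.2 in the combined pair, so its level in the combined group lay within the range of Smc3 del/+. The tested neighbours of Sh2d4a, Psd3, Csgalnact1 and Ints10, did not pass, with differences of -0.27, -0.41 and -0.33 in Flt3-ITD against control. Flt3 itself read 3.64 to 5.81 FPKM in every library outside the combined group and 14.3 and 7.92 in the combined group.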
